A study of Mus musculus with 6 samples.

Results

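The 10 genes described here encode parts of the NF-kB system: the subunits Nfkb1, Nfkb2, Rela and Relb, the inhibitor and cofactor proteins Nfkbia, Nfkbiz and Bcl3, and the feedback and signalling genes Tnfaip3, Birc2 and Birc3. They were listed by name, with no threshold on their values but with earlier results of these data known, and all 10 were found among the 12894 genes of the deposited table. All 10 passed the filter on low values, as did 12872 genes in all. The study profiled epidermis separated from the dermis of C57BL/6 mice on postnatal day 0 by bulk RNA sequencing. The 3 libraries labelled knockout came from mice in which Hnrnpu, a gene for a nuclear RNA-binding protein, was deleted with a loxP-Cre system. The 3 controls were 1 animal labelled wild type (control 1) and 2 labelled "Heterogenous" (controls 2 and 3), a word read here as heterozygous. The sources used here do not give the cells that express Cre or say whether animals were pooled. Each title carries its own number, read as an animal number. No label says outright that the animals were separate, and if they were not, p-values measure only the spread between these samples.

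NF-kB proteins are transcription factors that sit in the cytoplasm until a signal frees them. In the canonical route, receptors of tumour necrosis factor (TNF), interleukin-1 and Toll-like type activate the IKK kinases, which mark the inhibitor IkB-alpha (Nfkbia) for destruction, and dimers of RelA and the Nfkb1 product enter the nucleus. In the noncanonical route, receptors such as the lymphotoxin beta receptor stabilize the kinase NIK (Map3k14), which drives processing of the Nfkb2 product, the partner of RelB. Several inhibitors are themselves targets of NF-kB, which closes a negative feedback loop. In epidermis the pathway is known for inflammatory responses of keratinocytes, and its arm downstream of the ectodysplasin receptor is known for the formation of hair follicles and glands.

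Promoter windows are shown for 4 members: 3 inhibitor or feedback genes that rose and are known as NF-kB targets, and 1 gene that fell. The windows come from RefSeq (build GRCm38.p6) and run from 250 bases before to 50 bases after an annotated start, 5′ to 3′ on the gene's strand. Windows were found for 7 of the 10 members by symbol, and Nfkb1, Relb and Nfkbiz were not in the table used. Capitals mark matches to a simplified form of the kappa B element, read on both strands: GGG, any 2 bases, TT, any base and CC. The motif was found in 4.79% of 32851 windows and in at least 1 window of 5.48% of 27025 genes. Of the 7 members with a window, 4 had a match: Nfkbia, Tnfaip3, Bcl3 and Nfkb2. The Nfkbia window lies at chr12:55492598-55492897 on the minus strand, the Tnfaip3 window at chr10:19015361-19015660 on the minus strand and the Bcl3 window at chr7:19822706-19823005 on the minus strand. The window of Birc3, at chr9:7873121-7873420 on the minus strand, is shown as that of a member that fell and had no match.
Nfkbia: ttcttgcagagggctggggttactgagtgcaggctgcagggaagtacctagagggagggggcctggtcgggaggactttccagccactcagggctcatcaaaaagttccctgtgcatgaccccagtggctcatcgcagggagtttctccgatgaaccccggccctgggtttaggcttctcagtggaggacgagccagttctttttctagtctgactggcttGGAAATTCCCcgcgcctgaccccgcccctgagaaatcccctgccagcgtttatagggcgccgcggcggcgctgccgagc
Tnfaip3: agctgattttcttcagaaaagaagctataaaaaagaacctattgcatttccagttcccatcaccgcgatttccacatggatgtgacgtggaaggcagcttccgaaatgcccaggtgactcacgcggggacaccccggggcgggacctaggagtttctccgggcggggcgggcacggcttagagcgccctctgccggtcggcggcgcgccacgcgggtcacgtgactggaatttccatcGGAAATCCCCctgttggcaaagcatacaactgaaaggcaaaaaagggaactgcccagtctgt
Bcl3: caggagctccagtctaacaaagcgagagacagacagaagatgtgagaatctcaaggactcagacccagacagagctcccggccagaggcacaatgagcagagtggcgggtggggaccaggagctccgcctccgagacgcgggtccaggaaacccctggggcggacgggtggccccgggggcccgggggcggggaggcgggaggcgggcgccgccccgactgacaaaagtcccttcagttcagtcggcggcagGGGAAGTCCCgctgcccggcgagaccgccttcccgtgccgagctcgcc
Birc3: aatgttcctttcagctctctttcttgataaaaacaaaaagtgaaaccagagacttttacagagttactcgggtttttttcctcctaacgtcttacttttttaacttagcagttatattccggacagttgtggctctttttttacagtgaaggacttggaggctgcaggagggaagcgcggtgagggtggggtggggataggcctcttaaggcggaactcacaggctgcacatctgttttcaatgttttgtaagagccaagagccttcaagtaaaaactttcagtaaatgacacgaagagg

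The match began 29 bases before the annotated start in Nfkbia, 12 bases before it in Tnfaip3 and 2 bases after it in Bcl3. A Nfkb2 window at chr19:46304487-46304786 on the plus strand held matches that began 39, 11 and 10 bases before the start, the first of them, GGGAATTCCC, on both strands and the other 2 overlapping. The other 2 windows of Nfkb2 shared the match GGGACTTTCC. No match was found in the windows of Rela, Birc2 and Birc3, or in the second window of Tnfaip3. A match describes these letters and is not a measured binding site.

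The targeted gene and the make-up of the libraries were examined first. Hnrnpu had 1565, 1342 and 1036 normalized counts in knockout-labelled libraries 1 to 3 and 1450, 1318 and 1160 in controls 1 to 3 (limma adjusted p = 0.976). The groups overlapped, and the 95% interval of the log2 change ran from -0.46 to 0.45. The labels do not state which exons were removed, and a count over the whole gene can miss a short deletion, so directions below rest on the labels. Xist had 1.87, 5656 and 4758 normalized counts in knockout-labelled libraries 1 to 3 and at most 3.27 in a control. Of the Y chromosome genes, Kdm5d, Ddx3y and Eif2s3y all had counts in knockout 1 and stood at 0 in knockout 2 and 3. By these transcripts knockout 2 and 3 were female and the other 4 libraries male, so values are also given with knockout 1 as the only library labelled knockout. In that fit the spread comes from the 3 controls alone, and the lone library is assumed to vary like them, so its calls are no check on stability. The estimated depth was 6460000 to 8770000 assigned reads in knockout-labelled libraries and 8280000 to 9120000 in controls, lowest in knockout 2. All 18 keratinocyte markers were measured, and their summed level was 727306 to 970447 normalized counts in knockout-labelled libraries and 902668 to 971536 in controls, most of it Krt1, Krt10 and Flg. Single keratinocyte markers moved in both directions, 4 higher and 2 lower (5 and 6 with the replicate block). Among those named after their values were seen, Krt14 changed by 3.21, Dsg3 by 3.07, Epcam by -1.02 and Krt15 by -6.84 on the log2 scale. The summed level of 13 measured leukocyte markers was 352.5, 2176 and 608.6 in knockout 1 to 3 and 984.8, 985.8 and 623.1 in controls 1 to 3, and none of the 13 was at 0 in any library. Their sum was highest in knockout 2 and lowest in knockout 1, and 2 of the 13 were higher and 2 lower. All 10 melanocyte markers were higher, with sums of 3637 to 5665 in knockout-labelled libraries against 541.1 to 806.4 in controls. Of 6 dermal fibroblast markers, 3 were higher and 1 lower, with a median log2 change of 1.36. The higher ones, named after their values were seen, were the collagen genes Col1a1, Col1a2 and Col3a1 (3.62, 1.65 and 3.81). The lower one, Postn, carried the sum, which was 638.0 to 919.6 in knockout-labelled libraries and 1340 to 2746 in controls. The 1 endothelial marker measured, Pecam1, had 6.54 to 59.5 normalized counts in knockout-labelled libraries and 2.66 to 5.72 in controls. In bulk samples, fewer cells of a type and less RNA per cell cannot be told apart.

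The inhibitor, cofactor and deubiquitinase genes rose, 1 subunit rose, and both inhibitor of apoptosis genes fell. Values are normalized counts per gene, and changes are differences of log2(value + 1), knockout minus control, tested by limma with Benjamini-Hochberg adjustment over all 12872 genes at 0.05. Of the 10 members, 5 were higher, 2 were lower and 3 did not pass. Over all genes tested, 33.6% passed, 17.7% higher and 15.9% lower. The median log2 change was 0.69 over the 10 members and -0.02 over all genes, or 0.35 and -0.36 with equal library totals. The 3 libraries labelled knockout all lay above the 3 controls for 6 members, against 25.8% of all genes, and all lay below them for 2 members, against 25.0% of all genes. With knockout 1 as the only library labelled knockout, 3 members were higher and 2 lower, and without control 1 the counts were 3 and 1. Without control 3 there were 4 higher and 1 lower. With the replicate block (libraries of adjacent animal numbers paired) 6 were higher and 2 lower.

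**Figure D1:**
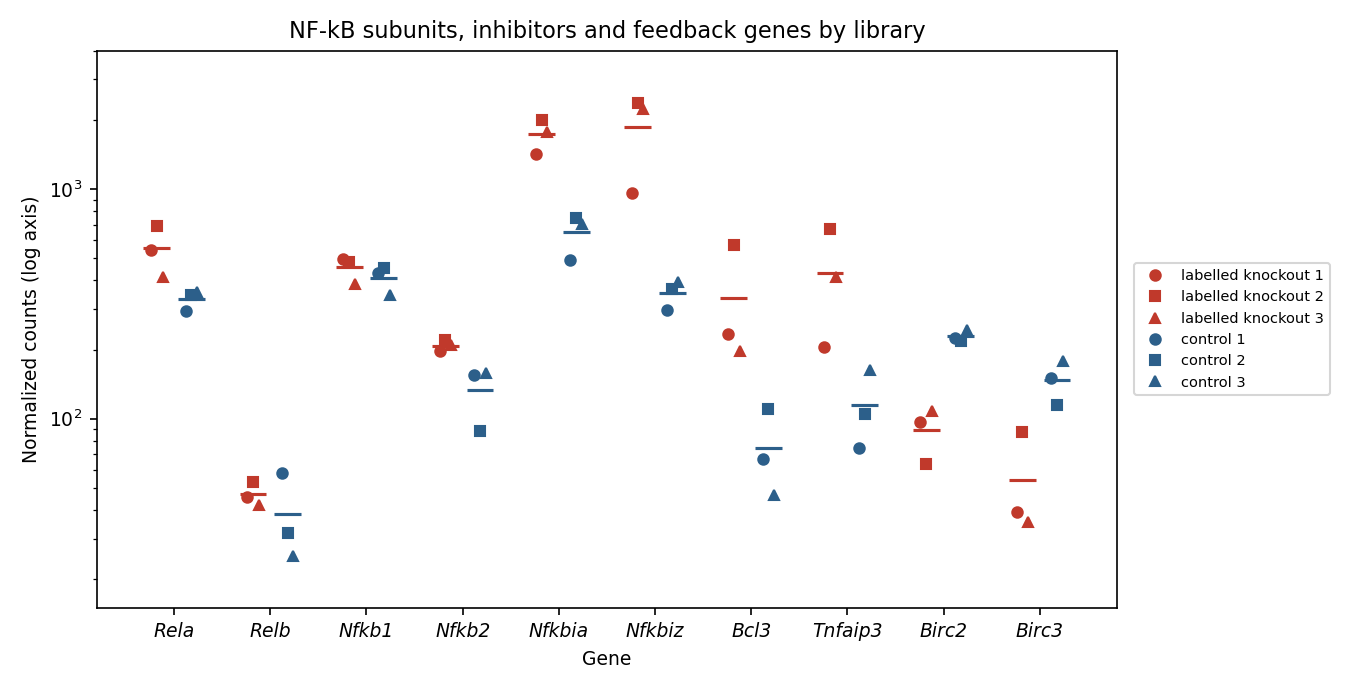
Normalized counts (log axis) of the 10 NF-kB genes in each library; points are libraries, with a symbol per replicate number, and horizontal bars are group means, with libraries labelled knockout left of controls. The groups do not overlap for Rela, Nfkb2, Nfkbia, Nfkbiz, Bcl3 and Tnfaip3, all higher in knockout-labelled libraries, and for Birc2 and Birc3, both lower there.

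Among the subunits, Rela was the only one to pass, and its call was not stable. Rela, which carries the transactivation domain of the canonical dimer, had 544.8, 692.4 and 415.8 normalized counts in knockout-labelled libraries 1 to 3 and 295.2, 346.2 and 356.4 in controls 1 to 3. Every library labelled knockout lay above every control, with knockout 3 closest to them. The log2 change was 0.70 ± 0.22 (SE, n = 3 and 3; limma adjusted p = 0.0403). Leaving out control 1, 2 or 3 ended the call (limma adjusted p = 0.128, 0.0948 and 0.0832), as did leaving out knockout 1 or 2 (0.0813 and 0.0988) or keeping knockout 1 alone (0.0686). It was also lost without the mean-variance trend and with equal library totals.

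Nfkb2, whose product is processed to the partner of RelB, had 196.3, 219.1 and 208.5 normalized counts in knockout-labelled libraries 1 to 3 and 155.3, 88.2 and 157.3 in controls 1 to 3. The groups did not overlap, and the knockout libraries were closer to each other than the controls were. The log2 change of 0.68 ± 0.26 missed the threshold (limma adjusted p = 0.0739), but passed with the replicate block (adjusted p = 0.0497). Nfkb1, the precursor of RelA's canonical partner, had 498.1, 481.5 and 387.0 normalized counts in knockout-labelled libraries 1 to 3 and 429.6, 450.7 and 344.1 in controls 1 to 3. These groups overlapped, and the 95% interval of the log2 change ran from -0.28 to 0.60 around 0.16 (limma adjusted p = 0.547), a value that turned to -0.18 with equal library totals. Relb, the noncanonical Rel subunit, had 45.8, 52.7 and 42.1 normalized counts in knockout-labelled libraries 1 to 3 and 58.1, 31.9 and 25.3 in controls 1 to 3. Control 1 exceeded all libraries labelled knockout, and the interval of the log2 change ran from -0.47 to 1.19 around 0.36 (limma adjusted p = 0.464).

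Nfkbia, Nfkbiz and Bcl3, which encode IkB-family proteins, all rose. Nfkbia encodes the inhibitor that holds NF-kB dimers in the cytoplasm. It had 1418, 2006 and 1774 normalized counts in knockout-labelled libraries 1 to 3 and 489.3, 749.1 and 707.1 in controls 1 to 3. The lowest knockout library was well above the highest control. Nfkbia rose by 1.43 ± 0.22 on the log2 scale, a 2.69-fold change (SE, n = 3 and 3; limma adjusted p = 0.0024), and by 1.15 with knockout 1 alone.

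Nfkbiz encodes a nuclear IkB protein that acts as a cofactor of NF-kB and is known as a mediator of interleukin-17 responses in keratinocytes. Nfkbiz had 965.4, 2375 and 2233 normalized counts in knockout-labelled libraries 1 to 3 and 298.2, 366.6 and 394.0 in controls 1 to 3. The controls lay close together, while knockout 1 was well below knockout 2 and 3. The log2 change was 2.29 ± 0.33, or 4.91-fold (limma adjusted p = 0.00182), and 1.46 with knockout 1 alone, a value with no spread among knockouts.

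Bcl3, another nuclear IkB protein, binds homodimers of the processed Nfkb1 and Nfkb2 products. It had 233.6, 570.0 and 197.4 normalized counts in knockout-labelled libraries 1 to 3 and 66.4, 110.7 and 46.6 in controls 1 to 3. All libraries labelled knockout were above all controls, with knockout 2 far above the other two. The log2 change was 2.07 ± 0.45 (limma adjusted p = 0.0094), and 1.60 without knockout 2. Its 95% interval, 1.05 to 3.09, overlapped that of Nfkbiz, 1.53 to 3.06.

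Tnfaip3 encodes a ubiquitin-editing enzyme that shuts off signalling to IKK, and is itself a classical NF-kB target. It had 204.7, 668.6 and 413.6 normalized counts in knockout-labelled libraries 1 to 3 and 74.8, 104.5 and 163.5 in controls 1 to 3. The groups did not overlap, but knockout 1 and control 3 were near each other, and the spread within each group was wide. The log2 change was 1.81 ± 0.44, or 3.52-fold (limma adjusted p = 0.0153). It was 1.55 without control 1 (adjusted p = 0.0552 by limma) and 0.91 with knockout 1 alone (0.181), neither past the threshold.

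Birc2 and Birc3 encode the cellular inhibitors of apoptosis, ubiquitin ligases at the TNF receptor complex that promote canonical signalling and degrade NIK in resting cells. Both fell. Birc2 had 96.3, 63.6 and 107.6 normalized counts in knockout-labelled libraries 1 to 3 and 225.0, 217.8 and 244.4 in controls 1 to 3. Its controls were nearly equal, and the highest library labelled knockout was under the lowest control. Birc2 fell by 1.38 ± 0.24 on the log2 scale, to 38.3% of the control level (limma adjusted p = 0.0041).

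Birc3, the member of the pair that is known as an NF-kB target, had 39.2, 87.7 and 35.5 normalized counts in knockout-labelled libraries 1 to 3 and 150.1, 114.2 and 178.2 in controls 1 to 3. Knockout 2, the library with the most leukocyte marker counts, had the highest knockout value and was nearest to the controls. Birc3 fell by 1.53 ± 0.37, to 34.7% of the control level (limma adjusted p = 0.0151). Leaving out control 1 or 3 ended the call (limma adjusted p = 0.0511 and 0.0595), while with knockout 1 alone the log2 change was -1.86. Birc2 and Birc3 are neighbours on chromosome 9 and similar in sequence, so how reads were shared between them is uncertain. Annotated exons of Nfkb2 and Bcl3 overlap genes on the opposite strand (Psd and Gm16175), and the sources used here do not say whether counting used the strand, so such reads cannot be told apart.

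On the deposited scale, knockout 2 had the highest value among the libraries labelled knockout for 8 of the 10 members. It also had the most leukocyte marker counts and the highest total, 10987666 normalized counts, against 8191409 and 8469679 in knockout 1 and 3. The part of library scaling in this order was not tested. Without knockout 2 the log2 changes of Nfkbiz, Nfkbia, Bcl3 and Tnfaip3 were 2.06, 1.31, 1.60 and 1.41, each past the threshold. Leukocyte markers were present in every library, and the part of leukocytes in these results was not tested. Nor was that of melanocytes, whose markers were higher in all 3 libraries labelled knockout.

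**Figure D2:**
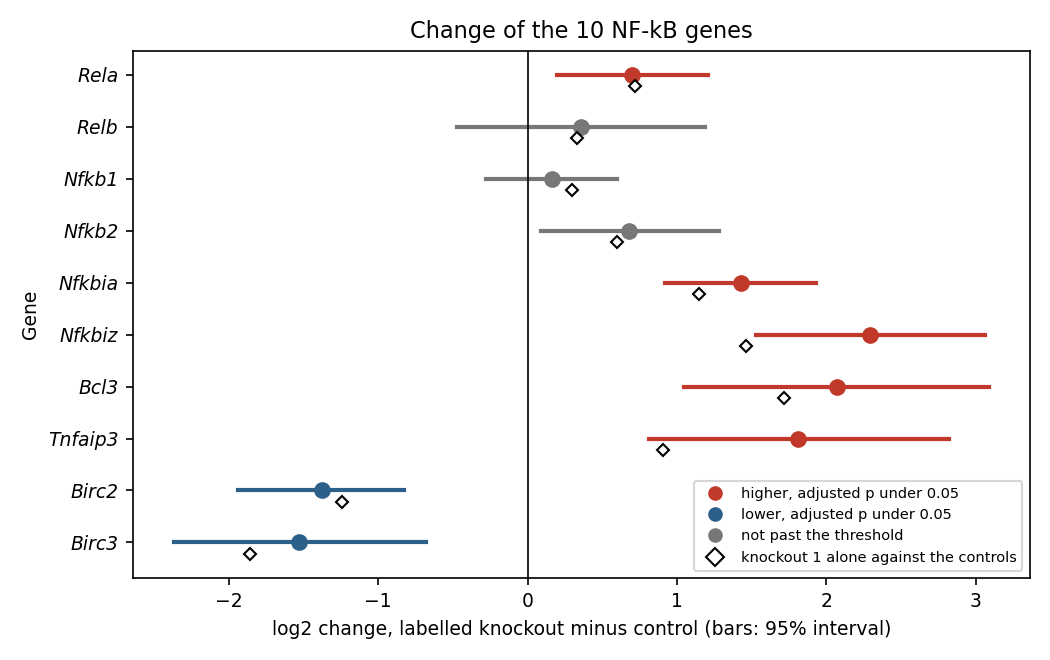
The log2 change of each NF-kB gene, labelled knockout minus control, with its 95% interval as a bar; colours give the limma call and open diamonds the change of knockout 1 alone against the 3 controls. Nfkbiz, Bcl3, Tnfaip3 and Nfkbia lie at 1.43 to 2.29, Birc2 and Birc3 at -1.38 and -1.53, and the diamond of Tnfaip3, at 0.91, is about as low as its interval's lower end of 0.81.

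Levels of different genes were compared per kilobase of annotated exon, joined over all transcripts of a gene (GENCODE M21). That length can exceed the transcript expressed here, and the order depends on it. It was 12.1 kilobases for Nfkb1 and 3.07 for Rela. In the libraries labelled knockout the order was led by Nfkbia with 1076 ± 184 normalized counts per kilobase (SD, n = 3) and Nfkbiz with 370 ± 155, followed by Rela with 179 ± 45.1 and Bcl3 with 135 ± 83.0. Tnfaip3 followed with 59.4 ± 32.2, then Nfkb2 with 45.4 ± 2.49, Nfkb1 with 37.8 ± 4.97, Birc2 with 19.5 ± 4.99, Relb with 12.1 ± 1.39 and Birc3 with 10.8 ± 5.81. In controls, Nfkbia came first with 403 ± 86.6, then Rela with 108 ± 10.7, Nfkbiz with 70.3 ± 9.83 and Birc2 with 50.02 ± 3.002. The lowest there were Tnfaip3 with 15.8 ± 6.25 and Relb with 9.90 ± 4.47. Between them lay Nfkb1, Bcl3, Birc3 and Nfkb2, at 33.8 ± 4.68, 30.1 ± 13.3, 29.5 ± 6.40 and 29.1 ± 8.57. Neighbours in the order that differed by less than the smaller of their SDs were Rela and Bcl3, and Relb and Birc3, in knockout-labelled libraries. In controls they were Nfkb1 and Bcl3, Bcl3 and Birc3, and Birc3 and Nfkb2.

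If each library was scaled by 1 factor, as assumed here, ratios between 2 of its genes are nearly free of that scaling, apart from the pseudocount of 1. For 6 pairs, log2((a + 1)/(b + 1)) was compared over the 6 libraries by an exact two-sided permutation test, whose smallest possible p is 0.1. Bcl3 over Nfkb1 was -0.60 ± 0.74 (SD, n = 3) in knockout-labelled libraries and -2.52 ± 0.44 in controls, a difference of 1.91 (exact p = 0.1, 0.2 adjusted over the 6 pairs). Nfkbiz over Nfkbia was 0.01 ± 0.49 in knockout-labelled libraries and -0.86 ± 0.16 in controls, a difference of 0.87 (exact p = 0.1, 0.2 adjusted). Nfkbia over Rela was 1.67 ± 0.37 in knockout-labelled libraries and 0.94 ± 0.20 in controls, a difference of 0.73 (exact p = 0.1, 0.2 adjusted). In these 3 pairs every library labelled knockout lay above every control. Groups overlapped for Nfkb2 over Nfkb1, with a difference of 0.52 (exact p = 0.3), for Relb over Rela, with -0.34 (exact p = 0.7), and for Birc3 over Birc2, with -0.14 (exact p = 0.9). The ratio of Birc3 to Birc2 was 0.46 in knockout 2, against -1.27 and -1.57 in knockout 1 and 3, a wider spread than among the controls.

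**Figure D3:**
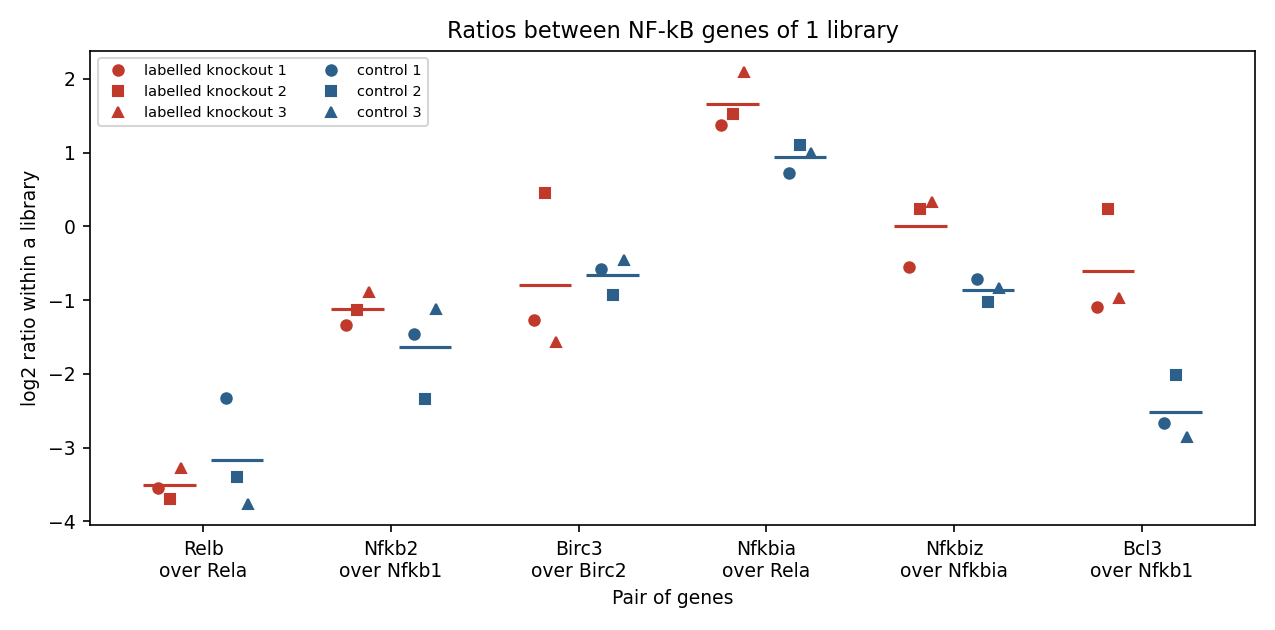
Log2 ratios of 6 pairs of NF-kB genes within each library; points are libraries, horizontal bars group means, libraries labelled knockout left of controls. The groups separate for Nfkbia over Rela, Nfkbiz over Nfkbia and Bcl3 over Nfkb1, and overlap for the other 3 pairs.

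The rest of the pathway was read from 8 further lists, which together named 201 genes, of which 133 were tested. Of these, 40 were higher, 8 were lower and 85 did not pass, with a median log2 change of 0.36. The share called, 36.1%, was near the 33.6% of all genes. Counts of lower genes fell to 4, 5 and 3 without control 1, 2 and 3, and with knockout 1 alone 26 were higher and 5 lower. With the replicate block 50 were higher and 16 lower, and with equal library totals 33 and 19, with a median of 0.02 for these genes.

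The list of Rel and IkB proteins outside the 10 had 7 tested genes (median 0.06, or -0.28 with equal library totals). It also held the more loosely linked Nkap, Nkrf, Nfkbil1 and Commd1, which changed by -0.28, -0.74, 0.77 and -0.38. The IkB genes Nfkbib and Nfkbie, named after their values were seen, changed by 0.06 and 1.99 (limma adjusted p = 0.859 and 0.052). The groups did not overlap for Nfkbie, which had at most 8.31 normalized counts in a control. Rel, the lymphoid Rel subunit, was higher by 0.77 ± 0.22 (limma adjusted p = 0.027) and 0 were lower (1 lower at an unadjusted p under 0.05). Rel had 438.3, 711.2 and 524.5 normalized counts in knockout-labelled libraries 1 to 3 and 348.8, 326.7 and 289.4 in controls 1 to 3. Its call was lost without knockout 2 (adjusted p = 0.0607 by limma), without control 1, 2 or 3 (0.0602, 0.076 and 0.094) and with knockout 1 alone (0.201), as it was with equal library totals (0.108). The list of the IKK complex and upstream kinases had 14 tested genes, with a median log2 change of -0.13 (-0.47 with equal library totals). It also held genes that do not encode kinases: Ikbkg, Tab1, Tab2, Tab3, Azi2 and Tank. Map3k8, a kinase released when the Nfkb1 product is degraded, was the only gene of the 14 that was higher, by 1.48 ± 0.40 (limma adjusted p = 0.0227). Leaving out knockout 1 or 2 or control 3 ended its call (limma adjusted p = 0.0631, 0.0679 and 0.0714). None of the 14 was lower (2 lower at an unadjusted p under 0.05, and 4 past the threshold with equal library totals). The IKK subunits Chuk, Ikbkb and Ikbkg and the NIK gene Map3k14, named here after their values were seen, differed by 0.47, -0.09, -0.44 and 0.38, none past the threshold. Without knockout 1 or 3 the Rel and IkB list had 2 higher genes, and without knockout 3 the IKK list had 1 lower. With the replicate block the Rel and IkB list had 3 higher and 1 lower, and the IKK list 2 higher and 1 lower.

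Of 29 adaptors and ubiquitin enzymes, 4 were higher and 3 lower, or 24.1% called against 33.6% of all genes. Their median was 0.15, or -0.19 with equal library totals. Card14, a keratinocyte scaffold that activates NF-kB through Bcl10 and Malt1, had 631.2, 800.2 and 660.6 normalized counts in knockout-labelled libraries 1 to 3 and 133.6, 213.6 and 187.3 in controls 1 to 3, a rise of 1.98 ± 0.22 (limma adjusted p = 6.09e-04). Ube2n, the conjugating enzyme for lysine-linked ubiquitin chains that activate IKK, rose by 1.44 ± 0.22. Traf5, a TNF receptor adaptor, and Edaradd, the adaptor of the ectodysplasin receptor, were lower. Traf5 had 2.80, 5.10 and 7.76 normalized counts in knockout-labelled libraries 1 to 3 and 35.5, 35.4 and 40.9 in controls 1 to 3, and Edaradd fell by 2.58 ± 0.52. The fall of Edaradd was 1.49 with knockout 1 alone and then missed the threshold (log2 change -1.49, adjusted p = 0.0723 by limma).

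Of 20 further negative regulators tested, 12 did not pass, 7 were higher and Cyld, a deubiquitinase named after its values were seen, was lower, or 40.0% called against 33.6% of all genes. Their median log2 change was 0.48, or 0.14 with equal library totals. Zfp36, which destabilizes cytokine transcripts, had 4961, 9075 and 10452 normalized counts in knockout-labelled libraries 1 to 3 and 2388, 2233 and 2396 in controls 1 to 3, a rise of 1.73 ± 0.27 (limma adjusted p = 0.00247). Irak3, an inhibitory member of the interleukin-1 receptor kinase family, rose by 2.21 ± 0.36, the endoribonuclease gene Zc3h12a by 1.55 ± 0.27 and N4bp1 by 1.10 ± 0.19. Without control 1, and with knockout 1 alone, 4 were higher. Lower genes numbered 0 without control 1 or 3, 2 without any single library labelled knockout, 3 with the replicate block and 5 with equal library totals.

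At the receptor level, 7 of 12 tested TNF superfamily genes were higher and 1 was lower (66.7% called, against 33.6% of all genes). Their median log2 change was 1.46, or 1.12 with equal library totals. Ltbr, the lymphotoxin beta receptor of the noncanonical route, had 322.4, 335.2 and 276.1 normalized counts in knockout-labelled libraries 1 to 3 and 102.7, 104.5 and 94.8 in controls 1 to 3. The groups were narrow and far apart, with a rise of 1.62 ± 0.19 (limma adjusted p = 6.89e-04). Eda2r, an ectodysplasin receptor, rose by 5.97 ± 0.41, the death receptor Tnfrsf10b by 2.56 ± 0.33 and Tnfrsf18 by 2.69 ± 0.38. The lower gene was Tnfrsf11a, the receptor RANK, with -1.49 ± 0.43, named after its values were seen; its call was lost without control 1, 2 or 3 and with knockout 1 alone. With the replicate block 3 were lower.

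Of 17 tested genes of the interleukin-1, interleukin-17 and Toll-like class, 6 were higher and 1 was lower (41.2% called, against 33.6% of all genes). Their median was 0.24, or -0.10 with equal library totals. Il1a, a keratinocyte alarmin that signals to NF-kB, had 576.6, 1038 and 800.3 normalized counts in knockout-labelled libraries 1 to 3 and 58.1, 63.8 and 56.2 in controls 1 to 3. Il33, another alarmin of the family, had 306.5, 1637 and 426.9 in knockout-labelled libraries 1 to 3 and 9.82, 7.08 and 0.817 in controls 1 to 3. Il33 needed the libraries labelled knockout to pass the filter on low values, and the share and the median include it. The intracellular sensors Nod1 and Nod2 moved in opposite directions. Nod2 rose by 2.69 ± 0.30 and Nod1 changed by -3.09 ± 0.58 (limma adjusted p = 6.12e-04 and 0.00549). Without knockout 1, and with the replicate block, 2 genes were lower.

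Of 26 cytokine and chemokine genes listed as NF-kB targets, 11 were measured and 10 tested. Of these 10, 7 were higher and Il15, named after its values were seen, was lower (80.0% called, against 33.6% of all genes). Their median was 1.66, or 1.32 with equal library totals. Tslp passed the filter on low values only through the libraries labelled knockout. Ccl20 also needed those libraries to pass, as did Cxcl2 and Lif, named after their values were seen. The share and the median include these genes. Ccl20, a chemokine of epithelial cells, had 59.8, 148.0 and 124.2 normalized counts in knockout-labelled libraries 1 to 3 and 0.755, 9.74 and 15.5 in controls 1 to 3, and rose by 3.94 ± 0.80 (limma adjusted p = 0.00738). The call was lost with knockout 1 alone (adjusted p = 0.126 by limma). Tslp, an epithelial cytokine, had 2517, 6315 and 2697 normalized counts in knockout-labelled libraries and at most 0.885 in a control. Tgfa and Vegfa, growth factors, rose by 1.49 ± 0.28 and 1.84 ± 0.32. The count of higher genes was 3 of 9 tested without knockout 2, 4 of 9 without knockout 3 and 4 of 10 without control 1. Leaving out any library labelled knockout took Tslp below the filter on low values. Lower genes numbered 0 without knockout 1 or any single control, 0 with quantile normalization and 2 without knockout 2.

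Of 24 tested adhesion, survival and defence targets, 7 were higher, 1 was lower and 16 did not pass. The share called, 33.3%, was near the 33.6% of all genes. Their median was 0.97, or 0.63 with equal library totals. Ier3, an early response gene, had 1260, 1592 and 567.7 normalized counts in knockout-labelled libraries 1 to 3 and 145.7, 75.3 and 80.1 in controls 1 to 3. Ptgs2, the inducible cyclooxygenase, had 1283, 10179 and 1459 in knockout-labelled libraries 1 to 3 and 8.31, 37.2 and 22.1 in controls 1 to 3. Knockout 2 was far above the other libraries for this gene. The beta-defensin gene Defb4 had 32.7, 238.2 and 23.3 normalized counts in knockout-labelled libraries 1 to 3 and was listed at 0 in all 3 controls. It passed the filter on low values only through the libraries labelled knockout, as did Defb14 and Lcn2, named after their values were seen. Mmp9, also named after its values were seen, needed those libraries to pass. The share and the median include these genes. Gadd45b rose by 1.16 ± 0.24 (limma adjusted p = 0.00791). The survival genes Bcl2l1 and Cflar, named after their values were seen, differed by 0.30 and 0.35 and did not pass. Plau, the urokinase gene, also named after its values were seen, was the lower gene, and 0 were lower without control 1 or 3. With the replicate block 11 were higher and 2 lower, and with equal library totals or quantile normalization 2 were lower.

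**Figure D4:**
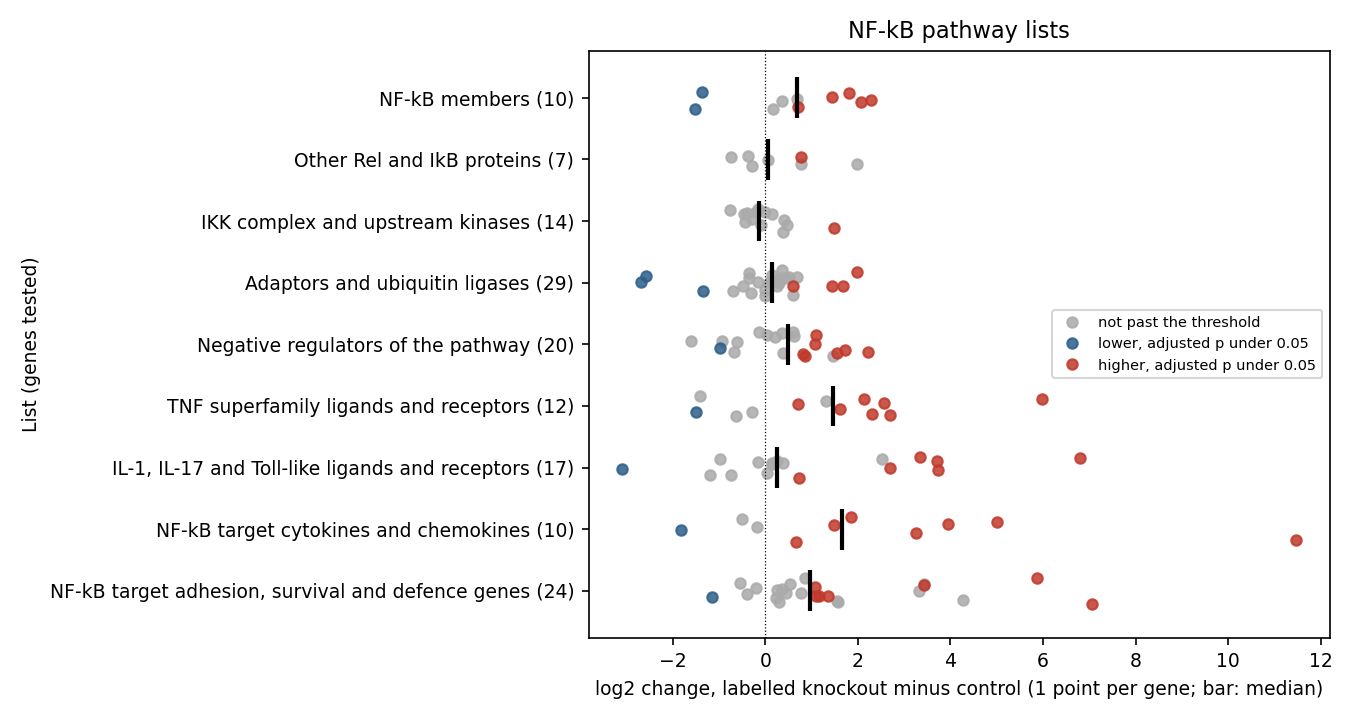
The log2 change of each tested gene, labelled knockout minus control, in the 10 NF-kB members and 8 further lists; each point is a gene, colours give the limma call and vertical bars are medians. Medians are -0.13 for the IKK list, which also holds genes that are not kinases. The list of other Rel and IkB proteins, which also holds more loosely linked genes, has 0.06 (-0.28 with equal library totals). Medians are 1.46 and 1.66 for TNF superfamily genes and for target cytokines.

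The genes whose values were most like those of 3 members over the 6 libraries were found by Pearson's r of log2(value + 1), among genes with a mean of at least the median. For Nfkbia they were Atp6ap1 (r = 0.9992) and Gskip (0.9971), for Nfkbiz Ptges3 (0.9989) and Snrpa (0.9984), and for Birc3 Sema4d (0.9978) and Vps4a (0.9893). These r values describe 6 libraries that fall into 2 groups, picked from a large number of genes. Likeness of pattern did not mean a change of like size. Atp6ap1 had 1537, 1759 and 1650 normalized counts in knockout-labelled libraries 1 to 3 and 953.6, 1148 and 1106 in controls 1 to 3, a far smaller separation than that of Nfkbia.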

How the data were processed

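Epidermal RNA from 6 mice was sequenced (TruSeq kit, per the labels' protocols). The authors deposited normalized counts per gene, a signal scaled by 1 factor per library; the submitters' processing notes name TopHat2 2.1.0, Partek 9.0.20.0202 and mm39, without roles, and the sources used here do not give the normalization method or strand setting. Of the nonzero values up to 20 times a step, the worth of 1 read, 80.4% to 83.8% per library were whole multiples of it (tolerance 0.02). Whole reads could therefore not be recovered for a count test. Symbols were matched for 12771 of 12894 gene IDs.

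Values were tested as log2(value + 1) with limma 3.58.1 (R 4.3.3; empirical Bayes with trend) over 12872 genes above 1 in at least 3 libraries, with Benjamini-Hochberg adjustment at 0.05. The code was tested on simulated data. Changes are on the log2(value + 1) scale, which understates those of low genes. Single ratios used exact permutation tests. Alternatives were other pseudocounts, filters, scalings and limma options, leaving out each library, knockout 1 alone, controls labelled "Heterogenous" only and a replicate block. Libraries with adjacent animal numbers deviated together (r = 0.37, 0.23 and 0.36; other pairs -0.28 to -0.07), so the numbers were taken to pair them, from the data and not from a stated litter.

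Members and lists were chosen with earlier results of these data known. Named genes were the 10 members, Hnrnpu, up to 4 genes past the threshold per further list by adjusted p, and the 2 genes most like each of Nfkbia, Nfkbiz and Birc3.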

Additional observations from a re-analysis of the deposited data

How the results depend on the processing

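Bcl3, Nfkbia, Nfkbiz and Birc2 kept their direction and their call under the 18 alternatives, which are 17 different fits, since leaving out control 1 and keeping the controls labelled "Heterogenous" are the same. The fit with knockout 1 alone takes its spread from the controls and is no check on stability. Bcl3 changed more than Nfkbiz without knockout 3 (2.37 against 2.11) and without control 2 (2.40 against 2.33). The same order held with knockout 1 alone (1.72 against 1.46). The count of members higher was 3 without control 1, with knockout 1 alone and with controls labelled "Heterogenous" only, and ranged from 3 to 5 over libraries left out. The count lower was 1 with controls labelled "Heterogenous" only and ranged from 1 to 2 over libraries left out. With equal library totals, Rela missed the threshold at 0.36 (limma adjusted p = 0.164) and Nfkb1 reversed to -0.18. The replicate block brought Nfkb2 past the threshold (0.68, adjusted p = 0.0497 by limma) and changed no other call among the 10 members. Over all genes, 1440 were higher and 3065 lower with equal library totals, 1305 higher with knockout 1 alone and 1155 lower with controls labelled "Heterogenous" only. Over libraries left out the counts were 1515 to 2300 higher and 1107 to 2164 lower. In the other pathway lists, 26 were higher with knockout 1 alone. The count lower there was 19 under equal library totals, 16 under the replicate block, 5 with knockout 1 alone and 4 with controls labelled "Heterogenous" only. Over libraries left out, 29 to 41 were higher and 3 to 11 lower, of 129 tested without a knockout library and 133 without a control. The Rela change was 0.70 without the trend, 0.72 with knockout 1 alone and 0.62 with controls labelled "Heterogenous" only, and missed the threshold. So did Tnfaip3 at 0.91 with knockout 1 alone, and Tnfaip3 at 1.55 and Birc3 at -1.50 with controls labelled "Heterogenous" only. Over libraries left out, the ranges were 0.52 to 0.89 for Rela, 1.41 to 2.27 for Tnfaip3, -1.93 to -1.29 for Birc3, -0.15 to 0.15 for Hnrnpu, -0.64 to 0.08 for the log2 ratio of Relb over Rela (0.08 also with controls labelled "Heterogenous" only) and -0.77 to 0.25 for Birc3 over Birc2 (0.10 without knockout 1). The Hnrnpu change was 0.02 with array weights, 0.07 without control 1 and 0.26 with knockout 1 alone. The causes were not tested. Depth limits the lowest genes most in knockout 2, where 1 read is worth 1.701 normalized counts.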

Other observations

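Knockout libraries differed most for Tnfaip3, whose highest value was 3.27 times its lowest, followed by Bcl3 with 2.89, Birc3 with 2.47 and Nfkbiz with 2.46. Among controls these ratios were highest for Bcl3 with 2.38, Relb with 2.29 and Tnfaip3 with 2.19. On the deposited scale, the lowest knockout value was in knockout 3 for 5 members, in knockout 1 for 4 and in knockout 2 for 1, Birc2.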
